A study of Mus musculus with 4 samples.

Results

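The Schlafen family was followed through RNA-seq of cultured mouse lung endothelial cells (ECs) before and after loss of the RNA-editing enzyme ADAR1. The genes were taken by symbol, namely Slfn1, Slfn2, Slfn3, Slfn4, Slfn5, Slfn8 and Slfn9, which are 7 of the 24421 genes in the count tables, and they carry 824 of the 1205261 candidate editing sites listed for the 4 libraries. The ECs came from 2 male C57/BL6 inducible ADAR1 knockout (i-KO) mice of 2 weeks of age, from separate litters, called EC1 and EC2. From each mouse, cells treated with 4-OH-Tamoxifen (TM) were compared with untreated cells (CON), so each group held 2 libraries. CON cells carry the same ADAR1 i-KO model as TM cells, which the labels call EC-specific, but were not induced, and no library of cells without that model treated with TM was compared here, so the drug and the gene deletion cannot be told apart.

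Schlafen genes are a rodent-expanded family of interferon-inducible genes, of which most of the mouse members lie in one cluster on chromosome 11. All share an N-terminal Schlafen core, which in several members cleaves or binds RNA. The short members, Slfn1 and Slfn2, hold little more than this core, the intermediate members Slfn3 and Slfn4 carry an added linker domain, and the long members Slfn5, Slfn8 and Slfn9 end in a helicase-like domain. The family is best known from T cells and myeloid cells, where Slfn2 is needed for T-cell quiescence. In GRCm38, by the GENCODE annotation, Slfn5 spans chr11:82951349-82964840 on the plus strand, Slfn9 spans chr11:82978390-82991830 and Slfn8 spans chr11:83002158-83020810, both on the minus strand, and Slfn2, Slfn1, Slfn4 and Slfn3 follow on the plus strand up to position 83215154.

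The sequences the results turn on are shown first. ADAR1 converts adenosine to inosine, which is read as guanosine, in double-stranded RNA, and in mouse mRNA much of that structure is formed by B1 and B2 repeats. Sites that passed the editing criteria lay, within the family, in 4 B1 repeats of the 3′ UTR of Slfn5, at 1 UTR position outside repeats and in an exon of Slfn4. For each B1 repeat, the 25 bases around the site with the highest mean CON editing rate follow, read from the GENCODE Slfn5 transcript on the plus strand, with capitals at every base that passed the criteria in any library.
B1_Mus2, chr11:82962605-82962629: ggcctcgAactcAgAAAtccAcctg
B1_Mus1, chr11:82963216-82963240: AccccAgaActcAgaAggcagaggc
B1_Mur4, chr11:82963444-82963468: gtggtggtgcatAgctttAAtctca
B1_Mur1, chr11:82963674-82963698: agtttgagtccaAcctggtccacat
In the B1_Mus2 window 6 bases were edited, in B1_Mus1 5, in B1_Mur4 3 and in B1_Mur1 1.

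The promoters of Slfn5, Slfn8 and Slfn9 are shown because each holds 2 copies of GAAA with 2 bases between them, a core of the interferon-stimulated response element, on one strand or the other within 250 bases before to 50 bases after the annotated start. The stretches below are from the RefSeq promoter table (GRCm38.p6), 5′ to 3′ on the strand of the gene, with the motif, or its reverse complement, in capitals.
Slfn5, chr11:82951927-82951976, plus strand: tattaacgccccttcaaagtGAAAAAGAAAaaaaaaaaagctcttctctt
Slfn8, chr11:83020829-83020878, minus strand: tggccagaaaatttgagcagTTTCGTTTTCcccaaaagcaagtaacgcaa
Slfn9, chr11:82991846-82991895, minus strand: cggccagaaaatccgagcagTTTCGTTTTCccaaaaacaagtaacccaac
All 7 members matched the table, Slfn8 with 2 starts. The motif stood 155 bases before the RefSeq start in Slfn5, 48 and 136 bases before the 2 starts of Slfn8 and 45 bases before the start in Slfn9. The Slfn5 stretch lies inside the GENCODE span of Slfn5, which begins earlier, at chr11:82951349. These letters were not found in the windows of Slfn1, Slfn2, Slfn3 and Slfn4. Of 32544 distinct promoter windows of the same length, 3.45% held the motif.

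The libraries differed little in gene-assigned depth apart from EC2 TM. Gene counts summed to 1095488 to 1778732 per library, which was 0.823% to 0.858% of all read pairs in the tables, and 92.8% to 93.9% of read pairs were recorded as lying in no feature. Where the floxed exons lie, the targeted gene was lower in TM in EC2, the only mouse with listed sites there in both libraries. At listed sites of Adar exons 12 to 14 and the coding part of exon 15, median read depth was 143 in EC1 CON over 4 sites. It was 167 in EC2 CON and 65.5 in EC2 TM, over 2 sites each. No site was listed there in EC1 TM, so that depth is unknown. Over exons 2 to 11 the median depth was 152.5 and 175 in CON and 664 and 967 in TM, so that the depth of Adar over those exons was higher in TM. Of 12 endothelial markers, 11 were measured by depth in both mice and Vwf in EC1 only. The median log2 change was -0.54 over the 12 in EC1 and -0.59 over the 11 in EC2, beside 0.048 and -0.046 over all genes. The highest marker depth was 6294.5 and 8044.5 in CON and 5901 and 10552.5 in TM. One endothelial marker, Cldn5, was at 0.406 and 0.245 of its CON depth and was also called lower by counts (adjusted p = 0.0176). Of 10 fibroblast and smooth muscle markers, only Tagln was measured by depth in both mice, at 0.704 and 0.477 of CON, while in EC2 alone Acta2 was at 0.127 and Dcn at 0.333. No marker of that list was called by counts. The part of these shifts in the Schlafen values was not tested. Of 12 leukocyte markers, 4 (Cd3e, Lyz2, S100a8 and Cd52) had no count in any library, the summed level of the list was 52.3 to 73.5 in CPM (counts scaled to library size) in all 4 libraries, and no listed leukocyte gene had a median exonic depth above 48.

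By gene counts, 2 of the 7 Schlafen genes rose in TM ECs and none fell. The risers were Slfn2, a short member, and Slfn5, the most counted member. Across all genes, 4.39% of the 7899 tested were called higher in TM at an adjusted p at or under 0.05, by edgeR's quasi-likelihood test. The other 5 members had too few counts to enter that test, and Slfn2 entered it through its TM counts, while Slfn5 had more than 10 counts in every library. More cells that express a gene and more RNA per cell cannot be told apart in these bulk libraries.

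Of the short members, Slfn2 was counted 4 times in EC1 CON and 3 times in EC2 CON, and 44 times in EC1 TM and 70 times in EC2 TM. Both TM libraries lay far above both CON libraries. The log2 fold change was 3.62 (SE 0.55, n = 2 per group, edgeR adjusted p = 2.63e-05), and within mice it was 3.49 in EC1 and 3.86 in EC2. Slfn1, known for slowing thymocyte growth, was counted 0 times in both CON libraries and 2 times in each TM library. All 4 values are under the floor of 3 counts, and a change was not detectable at this depth.

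The intermediate members gave few counts. Slfn3 was counted 3 times (CON) and 5 (TM) in EC1 and 8 (CON) and 22 (TM) in EC2, a ratio of 1.90 between the summed counts of each group over the summed library sizes, whose 95% counting interval of 0.913 to 4.25 includes no change. Within mice its log2 change in CPM was 0.76 in EC1 and 0.77 in EC2. Slfn4 was counted 2 times (CON) and 2 (TM) in EC1 and 0 (CON) and 4 (TM) in EC2 (ratio 2.32, interval 0.415 to 23.5). Values of the CON and TM libraries overlapped for Slfn3 and met for Slfn4. Counting intervals cover counting error only.

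Among the long members, Slfn5, an interferon-induced nuclear protein, was counted 32 times in EC1 CON and 38 times in EC2 CON, and 160 times in EC1 TM and 261 times in EC2 TM. The groups did not overlap, and in CPM the means were 30.9 ± 4.37 in CON and 143 ± 2.49 in TM (SD, n = 2). The log2 fold change was 2.21 (SE 0.34, edgeR adjusted p = 2.63e-05), with 2.35 in EC1 and 2.09 in EC2. Slfn8 had no count in either CON library and 11 counts in each TM library. Against a floor of 3 counts per CON library, it was at least 2.995-fold higher in TM, and without the filter on low counts it passed edgeR's test (adjusted p = 0.00835), while DESeq2 gave an adjusted p of 0.117. Slfn9 was counted 4 times in EC1 CON, 0 times in EC2 CON, 10 times in EC1 TM and 14 times in EC2 TM, with a ratio of 4.65 (counting interval 1.60 to 18.4). Its TM libraries both lay above its CON libraries, and it was not called without the filter (adjusted p = 0.239).

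**Figure D1:**
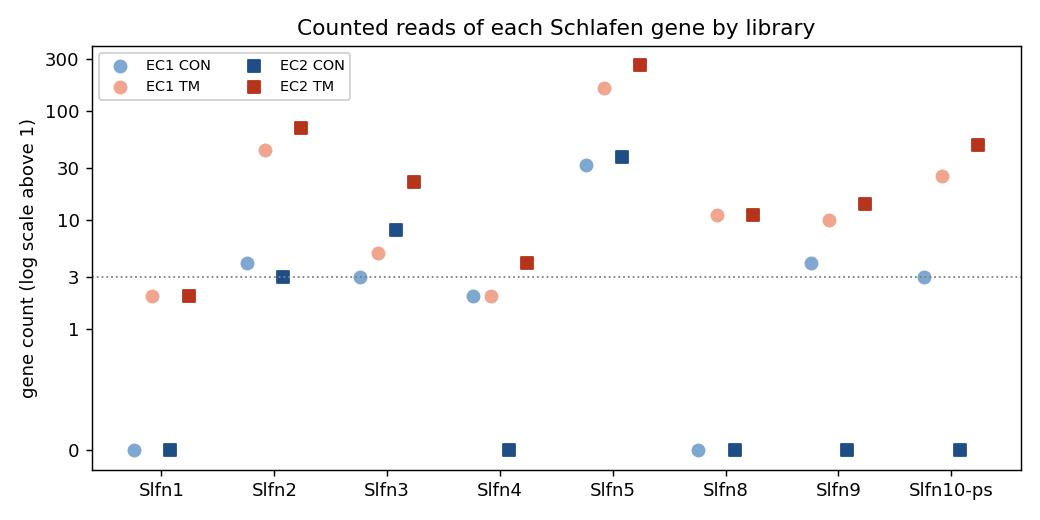
Counted reads (vertical axis, logarithmic above 1) of the 7 Schlafen genes and the pseudogene Slfn10-ps in each library, circles for mouse EC1, squares for EC2, blue for CON and red for TM; the dotted line is the floor of 3 counts. Slfn5 stands at 32 and 38 counts in CON and at 160 and 261 in TM, and Slfn8 is at 0 in both CON libraries.

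Near-identical stretches make the split of reads among some members uncertain. Runs of at least 50 identical bases with Slfn9 covered 29.2% of the Slfn8 transcript, and such runs with Slfn4 covered 25.1% of the Slfn3 transcript and 10.04% of the Slfn2 transcript. Slfn5 shared no such run with any other member.

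Beyond the 7 genes, the transcribed pseudogene Slfn10-ps, between Slfn8 and Slfn2, was counted 3 times in EC1 CON, 0 times in EC2 CON, 25 times in EC1 TM and 48 times in EC2 TM. It was called higher (edgeR adjusted p = 0.000364, log2 fold change 4.12, SE 0.76), with a ratio of 18.8 whose counting interval ran from 6.20 to 93.5. Like Slfn2, Slfn10-ps entered the test through its TM counts. With at least 10 counts required in every library it was not tested. Its log2 fold change was 3.19 without EC2 CON and 8.05 without EC1 CON, where the remaining CON library has no count and the fitted value depends on the prior count. Runs shared with Slfn9 covered 33.6% of its transcript. Slfn14, a long member known from platelets and reticulocytes, was counted 14 and 34 times in CON and 18 and 37 times in TM. The groups overlapped (log2 fold change -0.20, SE 0.48, edgeR adjusted p = 0.880). At listed exonic sites Slfn14 had only 1 read at 1 site in EC1 CON and 4 reads at 1 site in EC2 TM. Its depth could thus not be compared, and whether the counted reads are those of Slfn14 was not tested. Slfnl1, a Schlafen-like gene on chromosome 4, had 5 to 8 counts in all libraries.

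Slfn5os is annotated on the strand opposite to Slfn5, and their exons overlap over 559 bases, which is 50.7% of the exonic bases of Slfn5os. It was counted 610 times (CON) and 2599 (TM) in EC1 and 793 (CON) and 3328 (TM) in EC2 (log2 fold change 1.74, SE 0.30, adjusted p = 0.000134). That was 12.8 to 20.9 times the count of Slfn5 in the same library, while the site table listed 3 sites in Slfn5os against 439 in Slfn5. The library kit keeps the strand of the RNA and the reads were counted with the default strand setting, and whether the counted reads are those of the sense strand was not tested. The counts of the members and of Slfn5os all carry this limit. Multiplying the median exonic depth of Slfn5 by the length of its exons gave 38549 to 45531 sequenced bases per counted read pair in the 4 libraries, far more than a read pair holds. The median over all genes was 47917 to 67450. The range was wider for Slfn2, at 37327 to 107605, and for Slfn3, at 87368 to 241840. Between EC1 CON and EC1 TM it went from 29825 to 127651 for Slfn9 and from 10901 to 80271 for Slfn4. For these members the counts and the depth thus give unlike ratios. The counts of all members are therefore given beside their read depth, which is read from the site table and does not use the counter.

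Read depth was higher in TM in more members than the count test called, and depth was not tested. For each gene it was the median depth over listed exonic and UTR sites, scaled to 1e8 read pairs in all rows of the count table, and at least 3 listed sites were required in each library. With 5 members measured in both mice, Slfn2, Slfn4, Slfn5 and Slfn9 at least doubled in TM in both mice and Slfn3 did so in EC1 only. For Slfn4 the CON depths were only 5.5 and 3 reads, and its reads cannot be told apart from those of its near copies. Over all 6836 genes measured in both mice, 3.95% at least doubled in both. A site enters the table only where a library held an altered read, so the sites behind a median differ between libraries. With 2 mice, a sign permutation cannot give a two-sided p under 0.5, and none is given.

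The median exonic depth of Slfn2 was 108 (CON) and 987 (TM) in EC1 and 194 (CON) and 1993 (TM) in EC2. After scaling, TM was higher by 9.23-fold in EC1 and 7.11-fold in EC2, from 4 and 9 listed sites in CON and 43 and 58 in TM. Every listed exonic site of Slfn2 in TM, at 686 reads or more, was deeper than every one in CON, at 255 reads or fewer.

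Slfn5 had a median exonic depth of 195 (CON) and 1076.5 (TM) in EC1 and 273.5 (CON) and 1693 (TM) in EC2, over 108 to 245 sites. Scaled, it was 5.57-fold higher in TM in EC1 and 4.29-fold in EC2. On the log2 scale the mean over mice was 2.29 ± 0.27 (SD, n = 2), beside 2.21 from the counts. Per base, Slfn5 and Slfn2 were the deepest members in TM, at 817 and 817 reads per 1e8 read pairs for Slfn5 and 749 and 961 for Slfn2, and neither was above the other in both mice.

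Slfn9 depth was 20 (CON) and 214 (TM) in EC1 and 24 (CON) and 328 (TM) in EC2. The scaled difference was 10.8-fold in EC1 and 9.46-fold in EC2, from 3 listed sites in each CON library and 32 and 45 in TM, although its counts had not entered the test. Slfn8 depth was 4.5 (CON, from 2 listed sites) and 101 (TM) in EC1 and 3 (CON) and 124 (TM) in EC2. Only EC2 met the minimum of sites, with a scaled difference of 28.6-fold over 3 CON sites of at most 3 reads, so its size is poorly known.

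Slfn4 depth was 5.5 (CON) and 40.5 (TM) in EC1 and 3 (CON) and 59 (TM) in EC2, a scaled difference of 7.44-fold and 13.6-fold. With so few CON reads, the size of the Slfn4 difference is poorly known. Slfn3 depth was 146.5 (CON) and 354.5 (TM) in EC1 and 287 (CON) and 563.5 (TM) in EC2. The scaled difference of Slfn3 was 2.44-fold in EC1 and 1.36-fold in EC2, the smallest of the members measured, and 4.83% of genes in EC1 and 18.8% in EC2 had as large a ratio or a larger one. In CON, Slfn3 and Slfn5 were the deepest members, at 110 and 200 reads per 1e8 read pairs for Slfn3 and 147 and 191 for Slfn5, while Slfn4, Slfn8 and Slfn9 stayed under 17. Slfn1 had 1 listed exonic site, with 4 reads, in EC2 TM. Slfn10-ps was 10.8-fold deeper in TM in EC1 and 6.85-fold in EC2.

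**Figure D2:**
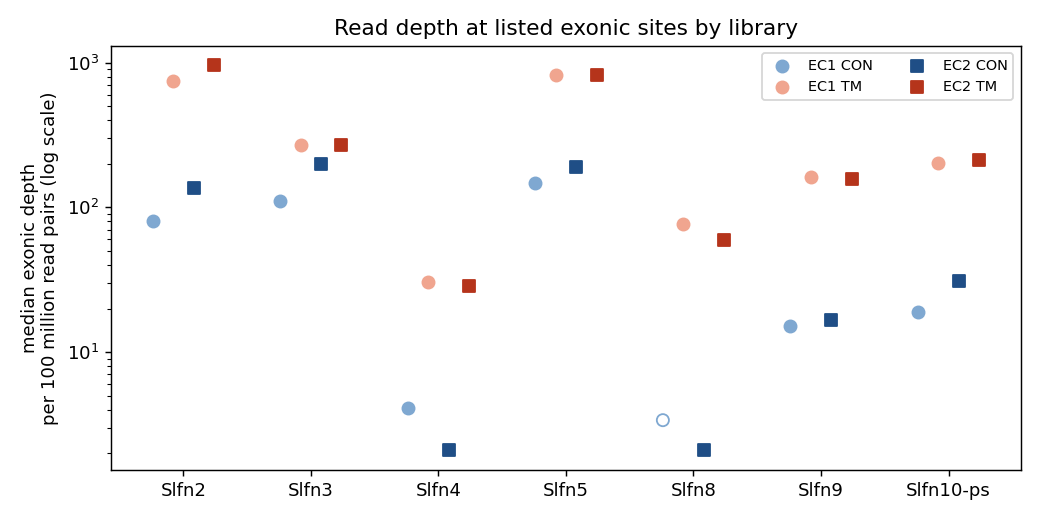
Median read depth at listed exonic sites per 1e8 read pairs (vertical axis, log scale) for each measured Schlafen gene by library, circles for EC1, squares for EC2, blue for CON, red for TM, open where fewer than 3 sites were listed. The TM points lie above the CON points of the same mouse for every gene shown, with the smallest distance for Slfn3.

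**Figure D3:**
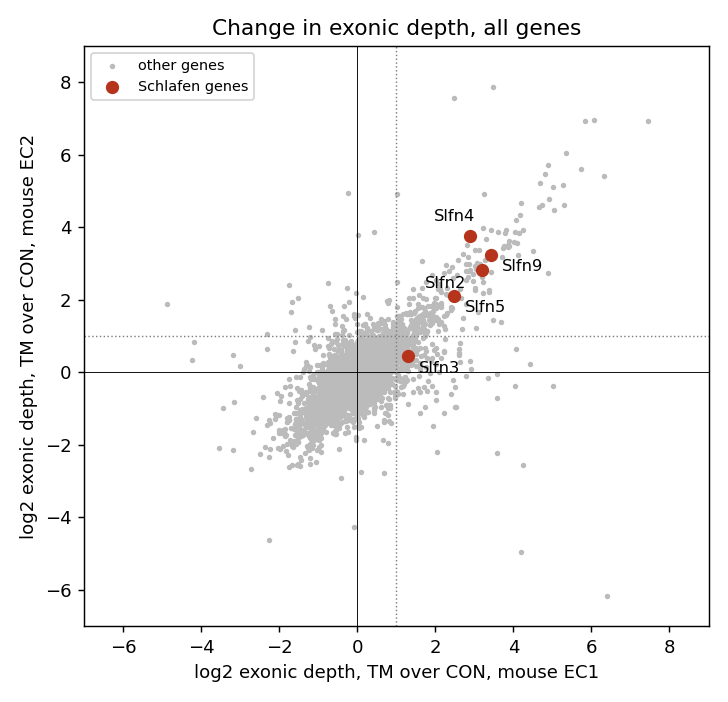
Log2 change in exonic depth, TM over CON, in mouse EC1 (horizontal) and EC2 (vertical) for 6836 genes in grey, with the 5 Schlafen genes measured in both mice in red and dotted lines at a doubling. Slfn2, Slfn4, Slfn5 and Slfn9 lie past both lines and Slfn3 past the EC1 line only.

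The interferon pathway was read from a list of 18 genes of ligands, receptors, JAK-STAT transducers, IRFs, inhibitors and RNA sensors. In the count test, 14 were tested, 4 rose (Stat2 and Irf9, which are parts of the same interferon-activated transcription factor complex, the factor Irf1, and Ifih1, the double-stranded RNA sensor MDA-5) and none fell, beside 4.39% of all tested genes that rose. Stat2 was counted 9 and 9 times in CON and 98 and 164 times in TM (log2 fold change 3.47, SE 0.42). Ifih1 was counted 2 and 0 times in CON and 36 and 53 times in TM. Each of the 4 had at most 9 counts in either CON library and entered the test through its TM counts. The share that rose was not tested against all genes. By depth, 5 of the 12 measured in both mice at least doubled in both (Stat2, Irf9, Usp18, Ddx58 and Ifih1) and none halved, beside 3.95% of all measured genes that doubled. The readouts parted for several genes of the list, among them Usp18, the inhibitor of interferon receptor signalling. Its depth went from 69 to 2009 in EC1 and from 44 to 3366 in EC2, while its counts went from 34 to 19 and from 29 to 45 and were not called (adjusted p = 0.685). Ddx58, the RNA sensor RIG-I, was 5.26-fold and 3.31-fold deeper in TM with a count log2 fold change of 0.17 (adjusted p = 0.857). Irf7 went from a depth of 75, over 2 sites, to 2180 in EC1 and from 76.5 to 4230 in EC2, and was not called by counts (adjusted p = 0.157). Ifnb1, which encodes interferon beta, had no count in any library, no listed exonic site in CON and depths of 121 and 189 over 3 sites each in TM. For Slfn2 and Slfn5 both readouts were higher in TM.

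By the Euclidean distance of centred log2 CPM over the 4 libraries, the genes nearest to Slfn2 were Psmb9, an immunoproteasome subunit (distance 0.203), Cyb5r1, a cytochrome b5 reductase (0.220), and Il27, a cytokine subunit (0.222). Psmb9 and Il27 had no count in CON. Nearest to Slfn5 were Dtx3l, a ubiquitin ligase (0.165), Zc3hav1, the zinc-finger antiviral protein (0.190), and Ccdc24 (0.206). With no count in CON, the distances of Psmb9 and Il27 depend on the prior count added to 0. The distance is a description over 4 libraries in 2 groups.

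Editing within the family was measured at sites that had 5 or more reads, 3 or more of them altered, and an altered share between 5% and 95%. Of the 824 listed sites, 38 passed in CON and 21 in TM of EC1, 34 and 24 in EC2, and 48 in at least 1 library. Slfn5 held 40 of these and Slfn4 held 8. No site passed in Slfn2, Slfn3, Slfn8 or Slfn9, of which 119, 81, 59 and 99 sites were listed, nor in Slfn1, with 9. The listed sites of the members were single altered reads in 56.7% to 70.8% of cases per library. In repeats other than the 4 B1s, 128 listed sites, such as those in the MTB element past the end of Slfn3 and the Lx element at the 3′ end of Slfn9, gave no passing site.

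The 3′ UTR of Slfn5 is 3140 bases long (chr11:82961701-82964840) and holds, in order, B1_Mus2 on the minus strand and B1_Mus1, B1_Mur4, B1_Mur1 and B2_Mm1a on the plus strand. B1_Mus2 is thus inverted against the other 3 B1s. Of its 23 adenosines, 16 passed in at least 1 library (69.6%). In B1_Mus1 it was 15 of 47 (31.9%), in B1_Mur4 4 of 31 and in B1_Mur1 4 of 31 (12.9% each), and in B2_Mm1a none of 39. The reverse complement of B1_Mus2 was identical to B1_Mus1 at 105 of 124 aligned bases (84.7%), to B1_Mur1 at 85.1% and to B1_Mur4 at 80.9%. B1_Mus1 is the nearest of the 3, with 507 bases between the elements, against 754 for B1_Mur4 and 949 for B1_Mur1. In the minimum free energy fold of the UTR predicted with ViennaRNA, 81.5% of the bases of B1_Mus2 paired with B1_Mus1, and neither B1_Mur4 nor B1_Mur1 paired with B1_Mus2. Of the passing sites, 14 of 16 in B1_Mus2 and 12 of 15 in B1_Mus1 were paired in that fold, and 2 of 4 in B1_Mur4 and 1 of 4 in B1_Mur1. Of all bases, 90.3% were paired in B1_Mus2, 80.1% in B1_Mus1, 70.5% in B1_Mur4 and 71.2% in B1_Mur1, so the passing sites were not paired more often than the bases of their element as a whole. The adenosines that did not pass were not compared on their own.

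The base before a passing site was seldom G. It was G at 5 of the 39 passing B1 sites (12.8%) and at 32 of the 93 other adenosines of the 4 elements (34.4%). At the 10 sites with a rate of 20% or more in both CON libraries it was A at 5, T at 3, C at 2 and G at none. The base after was G at 17 of 39 passing sites (43.6%) and at 40 of 93 others (43.0%).

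Mean editing rates were lower in TM in all 4 B1 elements and in both mice. A rate is the share of reads with the altered base, taken as 0 where a library did not list the site. In B1_Mus2 the mean rate over sites passing in the mouse went from 23.8% to 6.80% in EC1 over 14 sites, and from 28.2% to 9.52% in EC2 over 15 sites. B1_Mus1 went from 18.999% to 7.43% in EC1 and from 18.1% to 8.09% in EC2, over 14 sites each. B1_Mur4 went from 8.39% to 2.05% in EC1 and from 9.87% to 3.53% in EC2, over 3 sites each. B1_Mur1 went from 9.72% to 2.91% over 4 sites in EC1 and from 12.2% to 4.13% over 3 sites in EC2. The elements kept the order B1_Mus2, B1_Mus1, then the 2 less edited ones in CON in both mice. In TM the order of B1_Mus2 and B1_Mus1 depended on unlisted sites. With these taken as 0, B1_Mus1 was above B1_Mus2 in EC1 and below it in EC2, and over sites listed in both libraries B1_Mus2 was above in both, at 8.65% against 7.43% in EC1 and 10.4% against 9.43% in EC2.

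Across all repeats of the members the mean rate went from 18.96% to 6.20% in EC1 and from 21.2% to 7.97% in EC2, over 35 sites in each mouse. The TM rate was thus 0.327 of the CON rate in EC1 and 0.375 in EC2. The rate was lower in TM at 35 of 35 sites in EC1 and at 34 of 35 in EC2. Of these sites, 3 in each mouse were unlisted in TM and 1 in EC2 was unlisted in CON. A rate taken as 0 fixed their direction. Over sites listed in both libraries of the mouse, the rate was lower in TM at 32 of 32 in EC1 and 31 of 31 in EC2. Of the Slfn5 sites, 36 passed in CON and 16 in TM of EC1, and 34 and 18 in EC2. More sites passed in CON than in TM, so the choice of sites favours a lower rate in TM. Over all listed sites in repeats, the rate was lower in TM at 76 of 141 in EC1, with 62 unlisted in CON and 22 in TM. In EC2 it was lower at 79 of 165, with 80 unlisted in CON and 24 in TM. Over the passing sites of B1_Mus1, B1_Mur4 and B1_Mur1 together, without B1_Mus2, the ratio of TM to CON rate was 0.369 in EC1 and 0.425 in EC2. B1 sites in the 3′ UTRs of all other genes had ratios of 0.469 over 472 sites in EC1 and 0.419 over 594 sites in EC2, so the Slfn5 elements are described beside them and not set apart from them.

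**Figure D4:**
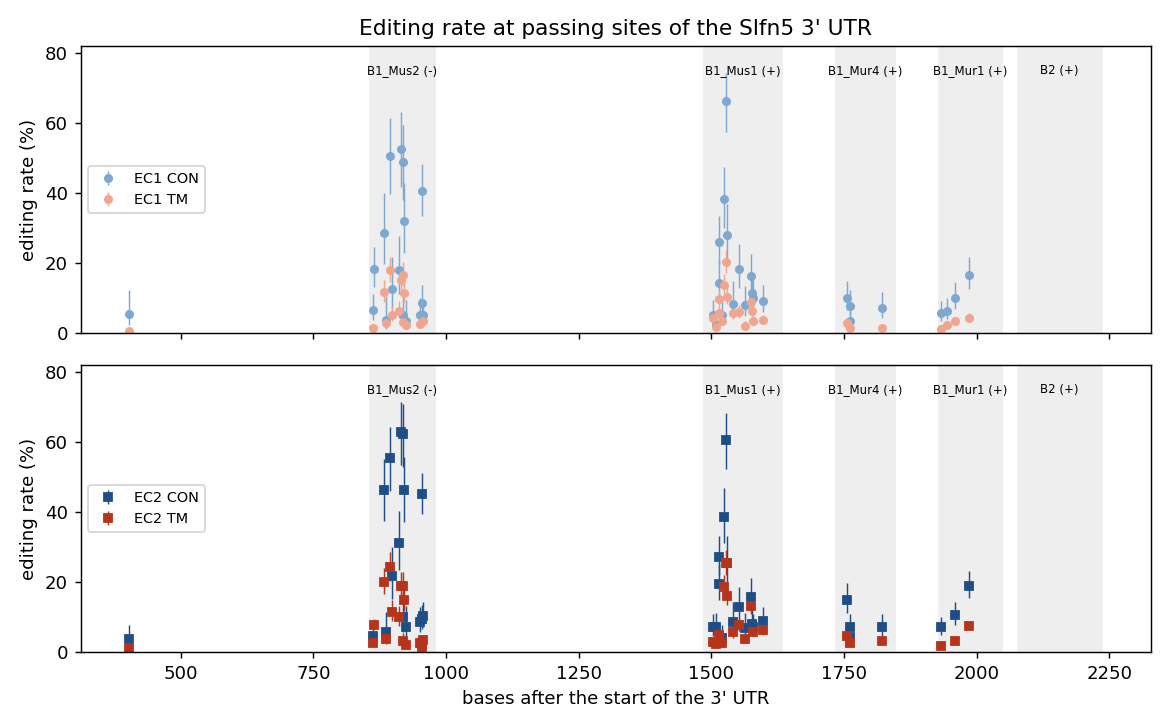
Editing rate (vertical, percent, with 95% Wilson intervals) at each passing site against its distance in bases from the start of the Slfn5 3′ UTR (horizontal), mouse EC1 above and EC2 below, blue for CON and red for TM, with repeats shaded and named with their strand. The highest points are in B1_Mus2 and B1_Mus1, at 52.5% to 66.4% in CON for the top site of each, B1_Mur4 and B1_Mur1 stay under 20%, and B2 holds no passing site.

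The most edited site of B1_Mus1, at chr11:82963228, was altered in 66.4% of 116 reads in EC1 CON (Wilson interval 57.4% to 74.3%) and in 20.3% of 596 reads in EC1 TM (17.3% to 23.7%). In EC2 it was altered in 60.6% of 142 reads in CON and 25.5% of 592 in TM. In B1_Mus2, the site at chr11:82962617 went from 52.5% of 80 reads to 15.1% of 417 in EC1 and from 63.0% of 108 to 18.8% of 425 in EC2. Both TM intervals lay below both CON intervals at either site.

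The top sites of the less edited elements moved the same way. At chr11:82963686 in B1_Mur1 the rate went from 16.7% of 246 reads to 4.52% of 1416 in EC1, and from 19.01% of 384 to 7.54% of 2494 in EC2. At chr11:82963456 in B1_Mur4 it went from 10.1% of 218 reads to 3.08% of 1135 in EC1, and from 15% of 280 to 4.66% of 1781 in EC2. A further B1_Mus2 site, chr11:82962655, was at 40.7% of 167 reads in EC1 CON and 45.3% of 274 in EC2 CON and was listed in neither TM library, although chr11:82962657 was listed there at 879 and 1645 reads. Its depth in TM is unknown.

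Under the rule that a site is higher in CON when its rate there exceeds the TM rate by at least 5 percentage points, 28 of 69 testable Slfn5 sites were higher in CON in EC1 (40.6%, beside 28.4% of all testable sites) and 24 of 70 in EC2 (34.3%, beside 21.9%). In both mice 19 sites of the members were higher in CON, all in Slfn5, 9 of them in B1_Mus2, 7 in B1_Mus1, 2 in B1_Mur1 and 1 in B1_Mur4. Higher rates in TM were found at none of the members' sites in EC1, beside 18.7% of all sites, at 3 in EC2, beside 19.6%, and at none in both mice. All 3 were unlisted in EC2 CON, where the rate was taken as 0, and none remained among sites listed in both libraries. Shallow sites can meet this rule in either direction on few reads. Among the sites tested below by Fisher's exact test, median CON depth was 156.5 and 253.5 reads in Slfn5 but 16 and 14 over all. The Slfn5 shares and the shares of all sites are thus at unlike depths.

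Fisher's exact test on the reads of each site, adjusted over all sites listed in both libraries, called 15 of 54 Slfn5 sites higher in CON in EC1 (27.8%, beside 0.22% of all sites tested) and 18 of 56 in EC2 (32.1%, beside 0.692%). In both mice 10 were called, 4 in B1_Mus2, 2 in B1_Mus1, 3 in B1_Mur1 and 1 in B1_Mur4. No site of the members was called higher in TM, beside 0.014% of all sites in EC1 and 0.0145% in EC2. The tested Slfn5 sites were deeper than most, with a median of 156.5 reads in EC1 CON and 253.5 in EC2 CON against 16 and 14 over all tested sites, and deeper sites reach the threshold at smaller differences. These tests compare libraries and not conditions.

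Altered reads are given beside the rate, since depth was higher in TM. Over 31 B1 sites of Slfn5 listed in all 4 libraries, altered reads per site and 1e8 read pairs went from 16.0 to 30.1 in EC1 and from 23.6 to 31.0 in EC2. That was 1.88-fold higher in TM in EC1 and 1.32-fold in EC2. Unaltered reads went from 91.4 to 513 in EC1 and from 117 to 455 in EC2, which is 5.61-fold and 3.89-fold. Altered reads were higher in TM at 31 of the 31 sites in EC1 and at 24 of 31 in EC2, while the rate was lower in TM at all 31 in both mice. In B1_Mus2 the altered reads of EC2 were nearly level, with a 1.03-fold difference, against 1.99-fold in EC1. These sites had to hold an altered read in every library, which leaves out sites such as chr11:82962655 that TM libraries did not list. Over all 39 passing B1 sites, with unlisted sites taken as 0 altered reads, a choice made after the data were seen, altered reads were 1.61-fold higher in TM in EC1 and 1.14-fold in EC2, and in B1_Mus2 they were 1.33-fold higher in EC1 and at 0.924 of CON in EC2.

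**Figure D5:**
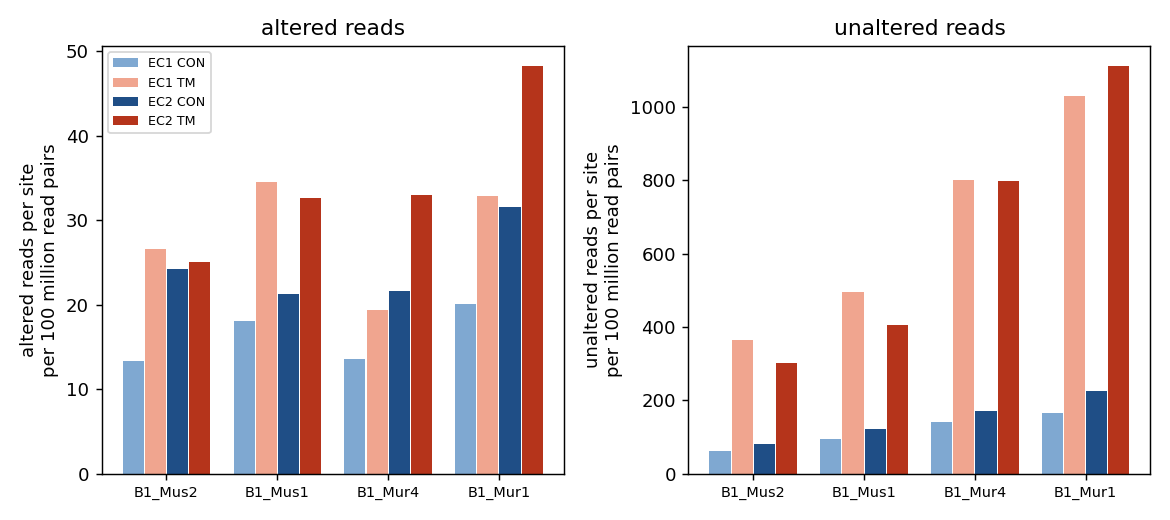
Altered (left) and unaltered (right) reads per site and 1e8 read pairs in the 4 B1 elements of the Slfn5 3′ UTR, 1 bar per library, over 13 sites in B1_Mus2, 13 in B1_Mus1, 2 in B1_Mur4 and 3 in B1_Mur1 that were listed in all libraries. Unaltered reads were higher in TM by 3.34-fold to 6.20-fold and altered reads by 1.03-fold to 1.99-fold.

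Slfn4 was the other member with passing sites, 8 in its exons and outside repeats, at depths of 79 reads or fewer. At chr11:83187331 the altered share in EC1 was 44.4% of 9 reads for CON and 12.2% of 41 for TM, and in EC2 33.3% of 3 and 22.0% of 59. Over the sites passing in a mouse the mean was 33.3% in CON and 9.82% in TM in EC1 (5 sites), and 22.2% and 13.7% in EC2 (6 sites). In EC1 4 of the 8 could be tested by Fisher's exact test and none was called, with 1 at an unadjusted p under 0.05 (p = 0.0432), and in EC2 none had the reads to be tested. At 7 of the 8 sites, the aligned base of Slfn3 or Slfn2 in the 81 bases around the site was the altered base, G. At chr11:83187358, for example, Slfn3 was identical at 80 of 81 bases and had the altered base. The altered reads of Slfn4 and reads of its near copies cannot be told apart here, and its depth carries the same limit.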

How the data were processed

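Libraries of rRNA-depleted RNA of 4 EC samples were sequenced as read pairs. The authors used Trimmomatic 0.38 for trimming and STAR 2.6.1a for alignment to mm10, and deposited raw counts per gene from HTSeq 0.11.2 at default settings, with no normalization. Rows that name no gene took 99.1% to 99.2% of read pairs and were left out of library sizes and tests. The authors also deposited a table of candidate editing sites with unaltered and altered read counts and the altered fraction per library, listing a site in a library only where an altered read was seen. Rates were recomputed here from those counts. Its columns follow the study's library names, and 0 per-sample columns were left unused.

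Counts were tested with edgeR 4.0.16 (R 4.3.3; default filter on low counts, TMM, quasi-likelihood, condition only, Benjamini-Hochberg over all genes tested). DESeq2 1.42.0 was an alternative. The same mouse gave CON and TM, so mouse pairs the libraries. Deviations from group means of same-mouse libraries correlated at r = 0.163 over 7899 genes. Fisher's exact tests used SciPy 1.17.1, two-sided, Wilson intervals a level of 95%, alignments Biopython 1.88 and folding ViennaRNA 2.7.2. The edgeR, DESeq2 and Fisher's tests were checked on simulated data. The sites simulated for Fisher's test were deeper than most tested sites, so its behaviour at their depths was not checked. The 7 members and all gene lists were chosen with earlier results of these data known. Genes were named as members, other Slfn symbols, genes overlapping a member's exons on the other strand, Adar, called interferon-list genes and the 3 nearest profiles of each called member. Usp18, Ddx58, Irf7, Ifnb1 and the cell type markers named fall outside that rule and were named after their values were seen. The interferon list is given without 1 gene that is not reported here. Replicates were 2 mice per group.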

Additional observations from a re-analysis of the deposited data

How the results depend on the processing

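Slfn2 and Slfn5 were called under every gene count alternative in which they were tested, with log2 fold changes of 3.45 to 3.802 and 2.06 to 2.36. With at least 10 counts in every library Slfn2 and Slfn10-ps were not tested and 1 member was called. Without the filter 3 members were called, with Slfn8 added. Leaving out each library in turn gave 2 called members each time, the lone library of a group being assumed to vary like the other group. The replicate block, with mouse as the block and pairing from the shared mouse, also gave 2 called members and changed no call of Slfn10-ps, Slfn14 or Slfn5os, while Slfnl1 was not tested. Over all genes it called 600 higher and 584 lower, against 347 and 265 without it, and DESeq2 called 234 and 128. The number of members whose depth at least doubled in both mice was 4. It was 2 with only sites listed in both libraries and 1 with at least 10 sites, since fewer members then had enough sites, and 5 in either mouse alone. The ratio of TM to CON editing rates in the members' repeats was 0.351 as a mean of both mice, 0.327 to 0.375 without either mouse, 0.387 with only sites listed in both libraries and 0.418 with all listed sites. Sites higher in CON in both mice numbered 19, or 11 at a difference of 10 percentage points and 10 by Fisher's exact test, and 24 to 30 in a single mouse. Leaving out a mouse was added after the data were seen for the depth and editing results. Slfn14 was not called under any alternative, and its log2 fold change of -0.20 ran from -0.73 to 0.59 with each library left out, turning positive without EC2 CON. With unlisted sites taken as 0, the log2 change of altered reads in B1_Mus2 in EC2 turned from 0.05 to -0.11. Low counts limit Slfn1, Slfn3, Slfn4, Slfn8 and Slfn9, and the depth of unlisted sites is unknown.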

Other observations

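Read depth was also listed at sites that the deposited table annotates as downstream of members. Downstream of Slfn3, 24 of them listed in EC2 TM, the median depth was 0.768 to 0.901 of the exonic depth in the 4 libraries, and downstream of Slfn8 it was 0.361 in EC1 TM over 2 sites and 0.706 in EC2 TM over 6. The sites called downstream of Slfn9 lie within its GENCODE span, and their depth was 0.895 of the exonic depth in EC1 TM over 10 sites and 1.25 in EC2 TM over 9. Introns of Slfn2 stood at 0.0306 of the exonic depth in EC2 TM over 9 sites, 0.0892 in EC1 TM over 2 sites and 0.213 in EC1 CON over 1 site. Within B1_Mus2 of Slfn5, depth was lower in the middle of the element. In EC1 CON the sites between 883 and 924 bases after the UTR start had 73 to 88 reads, and those at 863, 865 and 951 to 956 bases had 150 to 181. In EC2 TM those of the same sites that were listed had 422 to 465 and 1391 to 1645 reads.

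Slfn10-ps had 1 passing site, chr11:83027836, listed downstream and outside repeats. In EC1 it was altered in 11.9% of 42 reads (CON) and 4.49% of 178 (TM), in EC2 in 8.33% of 36 and 1.34% of 299, and Fisher's exact test did not call it in either mouse.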
